A study of Mus musculus with 2116 samples.

Results

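Among conventional CD4+ T cells (Tconv) of the mouse spleen, 162 of 1096 cells carried a high share of mRNA from 12 genes of the effector and memory program and are described here as the high-score cells. They were selected on that share. A cell entered when S100a4, S100a6, S100a10, S100a11, Lgals1, Itgb1, Ahnak, Crip1, Vim, Anxa2, Cd44 and Icos together supplied at least 3 of every 1000 of its unique molecular identifiers (UMIs, the tags that count captured mRNA molecules). Cells under 1000 UMIs (192 of the 1300 Tconv cells) or with a UMI of Cd79a, Lyz1 or C1qa, genes of B cells and macrophages (12 more), had been left out. The high-score cells were 14.8% of the Tconv cells that passed (exact binomial interval 12.7% to 17.0%, counting error only) and 12.5% of all 1300. The other 934 cells are the comparison throughout.

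The study profiled 2116 spleen CD4+ T cells by inDrops, a droplet method for single cells. All came from male B6 Foxp3-Ires-Gfp mice aged 8 months, whose reporter makes cells that express Foxp3 fluoresce green. One library was labelled as Tconv (1300 cells) and the other as regulatory T cells (Treg, 816 cells), and each cell was deposited as a sample of its own. The labels name no animals, no pooling and no second library of either population, and their sort protocol gives the same GFP+ gate for both populations. Each value below is therefore a sum over the cells of 1 library. Its 95% interval covers counting error only, and no difference between cell classes was tested across mice.

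Naive CD4+ T cells circulate between blood and lymphoid organs with the help of the chemokine receptor Ccr7 and the transcription factors Tcf7, Lef1 and Klf2. After they meet antigen they gain adhesion molecules such as CD44 and beta1 integrin (Itgb1), calcium-binding S100 proteins, the cytoskeletal proteins vimentin and Ahnak, and the costimulatory receptor Icos. Effector and memory cells then differ by the helper program they follow: Th1 cells use Tbx21 and Cxcr3, and follicular helper cells use Bcl6, Cxcr5 and Pdcd1.

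The high-score cells held 275853 UMIs and the others 1552115. Their depth was alike, with a median of 1559.5 UMIs per cell (range 1018 to 6004) against 1597.5 (1002 to 4970), and a median of 729 against 708 genes. In 3 equal bins of depth, from shallow to deep, 17.0%, 12.3% and 15.1% of cells were high-score cells. The share of UMIs in cytosolic ribosomal protein genes was 28.6% in the high-score cells and 32.8% in the others, and its part in the ratios below was not tested. No high-score cell had a barcode that also occurred in the Treg library, which shared 12 barcodes with Tconv in all.

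The score had no gap at the cut. Its median was 4.38 per 1000 UMIs in the high-score cells and 0.984 in the others, and its highest value was 24.2. Of the 162 cells, 112 lay between 3 and 5 per 1000, 38 between 5 and 10 and 12 at 10 or more. The cell just inside the cut had 4 score UMIs of 1331 (3.01 per 1000) and the cell just outside had 4 of 1334 (2.9985 per 1000). Within 0.5 per 1000 of the cut lay 37 cells above it and 69 below, so the boundary depends on single UMIs. With every cell thinned to 1000 UMIs, 253 cells reached the cut, and at a cut of 5 per 1000 there were 50.

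**Figure D1:**
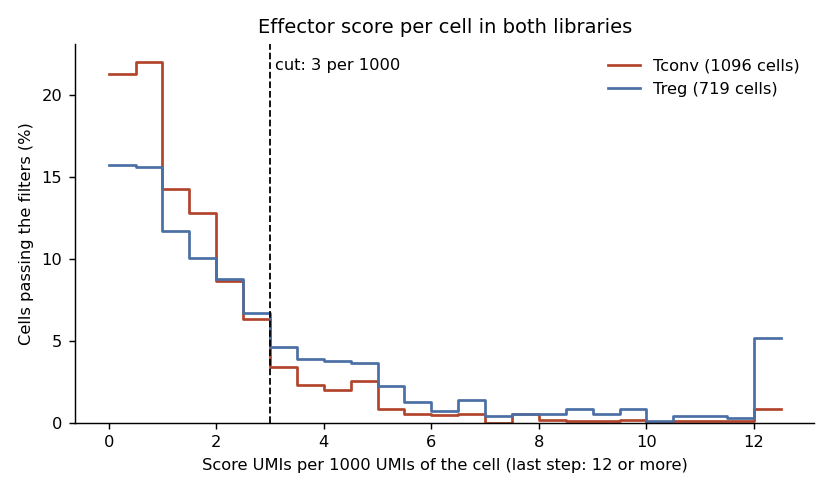
Share of the cells that passed the filters (vertical axis, percent) by score UMIs per 1000 UMIs of the cell (horizontal axis, steps of 0.5, the last step holding all cells at 12 or more), for the Tconv and the Treg library. The dashed line is the cut of 3 per 1000. Both curves decline across it with no gap, and 14.8% of Tconv and 31.6% of Treg cells lie at or above it.

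Among the score genes, S100a6 and S100a4 separated the 2 classes by the widest ratios. S100a6, a small calcium-binding protein, had 106 UMIs in 24 of the 162 high-score cells and 5 UMIs in 4 of the 934 others, or 384 CPM (counts per 1000000 UMIs; interval 315 to 465) against 3.22 (1.05 to 7.52). S100a4, a related protein tied to cell motility, had 34 UMIs in 11 high-score cells, at most 6 in any of them, and 3 UMIs in 3 others, or 123 CPM (85.4 to 172) against 1.93 (0.399 to 5.65). Both genes are part of the score, so their near limitation to the high-score cells is partly set by the choice. With S100a6 left out of the score, it had 87 UMIs in the selected cells and 24 in the others. Most high-score cells had no UMI of either gene. At 1000 UMIs per cell, S100a6 was seen in 12.3% of high-score cells and 0.321% of others, and S100a4 in 5.56% and 0.214%.

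These 2 genes stand in the same S100 gene cluster on chromosome 3 (GENCODE, GRCm38: S100a4 at chr3:90603771-90606045 and S100a6 at chr3:90612882-90624181, both on the plus strand). The 150 bases before each start are shown because these 2 transcripts appeared together in 8 cells and mark the upper end of the score. They are from RefSeq (GRCm38.p6), at chr3:90612744-90612893 for S100a6 and chr3:90603620-90603769 for S100a4, 5′ to 3′ on the plus strand. Capitals mark matches to TGTGGT, the letters of the RUNX motif, searched on both strands.
S100a6: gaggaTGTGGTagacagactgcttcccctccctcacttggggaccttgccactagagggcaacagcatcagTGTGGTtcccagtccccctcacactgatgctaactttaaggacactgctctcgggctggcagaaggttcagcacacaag
S100a4: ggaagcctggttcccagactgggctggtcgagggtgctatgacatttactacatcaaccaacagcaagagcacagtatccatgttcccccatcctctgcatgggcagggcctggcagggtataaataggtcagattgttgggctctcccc
The S100a6 window held 2 matches and the S100a4 window none. Of 32851 mouse promoter windows of the same length, 8.40% held the RUNX letters. The letters TGANTCA (AP-1, 4.24% of windows) and AGGTGTGA (T-box, 0.630%) were in neither window. A match of letters is a description of the window, not evidence that a factor binds there.

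The other 10 score genes were present more widely. Itgb1, the beta1 integrin chain, had 475 CPM in the high-score cells (131 UMIs in 40 cells) and 35.4 CPM in the others (55 UMIs in 38 cells). Crip1, a small LIM-domain protein, was the most abundant, at 1436 against 436 CPM, and at 1000 UMIs it was seen in 63.6% and 31.7% of cells. Vim, the intermediate filament protein vimentin, had 921 against 201 CPM, and S100a10, the partner of annexin A2, 707 against 254 CPM. The abundant genes Crip1, Vim and S100a10 thus supplied most score UMIs while being common in the other cells too. S100a11 had 366 against 56.1 CPM, the galectin gene Lgals1 239 against 51.5 and Icos 196 against 33.5. Ahnak, a large scaffold protein of the membrane skeleton, had 185 against 20.6 CPM, the hyaluronan receptor gene Cd44 134 against 23.2 and Anxa2 76.1 against 3.87. Since these genes chose the cells, their ratios are a description of the choice.

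To give each score gene a value that its own UMIs did not set, the score was computed without that gene and cells were selected again at the same cut. That kept between 86 and 162 cells. The log2 ratio of the left-out gene then had an interval above 0 for 12 of 12 genes and was at least 2-fold for 9 of 12, with a median of 1.62 against 2.63 under the full score. S100a4 did not move at all, at 5.99 (4.33 to 8.34), since the choice without it kept the same 162 cells. S100a6 stood at 4.39 (3.72 to 5.11), Anxa2 at 4.02, Ahnak at 2.67 (2.01 to 3.33) and Itgb1 at 2.49 (2.06 to 2.92). The 3 abundant genes were the ones under 2-fold: S100a10 at 0.90, Vim at 0.76 and Crip1 at 0.56 (0.28 to 0.84). Each score gene was thus higher in cells chosen by the remaining score genes, by the smallest ratios for the 3 abundant ones. The rule and its 12 genes were chosen with earlier results of these data known, so these ratios are no independent support for the score. They do not mean that all 12 occurred in the same cells. Within the high-score cells, Vim and Crip1 did not go with S100a4 and S100a6, as given below.

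**Figure D2:**
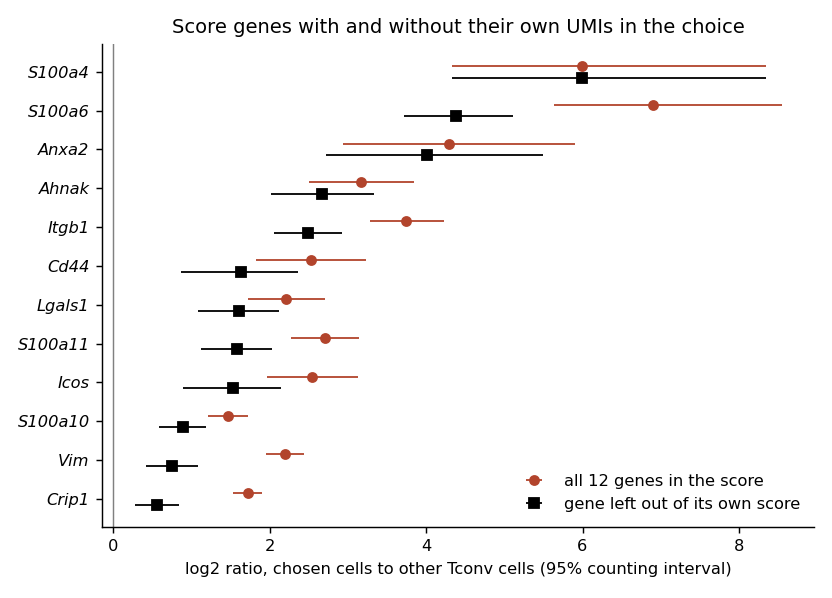
Log2 ratio of CPM in selected cells to CPM in the other Tconv cells (horizontal axis) for each score gene, with all 12 genes in the score (circles) and with the gene itself left out of the score (squares); bars are 95% counting intervals. All 12 squares lie above 0, from 0.56 for Crip1 to 5.99 for S100a4.

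Over the whole table, 7377 genes had at least 20 UMIs in the 2 classes together, and their median log2 ratio was 0.07. Of them 454 (6.15%) were at least 2-fold higher in the high-score cells and 578 (7.84%) at least 2-fold lower. These shares are over all measured genes, score genes included, and are the background for each count below. Most such genes had few UMIs, where counting alone spreads the ratios. With TMM scaling, which lowered every log2 ratio by 0.16, the split was 305 higher and 749 lower, and with a total that omits ribosomal protein genes it was 360 and 667. Log2 ratios between 0 and 0.16 below change sign under TMM scaling. A scarce gene can reach 20 UMIs only through the class where it is high, so for lists of scarce genes the sum over all listed genes is given, and single genes are described by their values.

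The higher genes were ranked by the interval bound nearest to no difference, which covers counting error only and makes no allowance for picking the top. The first 15 were Myo1f, Maf, Auh, Rsu1, Plekhb2, AW112010, Dscr3, Sec11c, Bcl2a1b, Fbxo3, Prr13, Tbc1d4, Fkbp15, Bcl2a1d and Bcl2a1a. Myo1f, an unconventional myosin of leukocytes (chr17:33555707-33607764), had 29 UMIs in 14 high-score cells and 4 UMIs in 4 others, a log2 ratio of 5.35 (3.84 to 7.32). Maf, the transcription factor c-Maf of IL-10 and IL-21 producing helper cells (chr8:115682942-115707794), had 32 UMIs in 16 cells and 15 UMIs in 15 others, a log2 ratio of 3.59 (2.66 to 4.58). Both had most of their UMIs in the smaller class, which none of the other 13 did. These 2 genes reached the minimum of 30 UMIs only through that class.

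The remaining genes of that group were common to both classes and 2.87 to 4.72-fold higher in the high-score cells. AW112010, a transcript known from activated and interferon-exposed lymphocytes, had 326 against 103 CPM and the widest reach, being seen at 1000 UMIs in 19.8% and 8.78% of cells. Rsu1, a partner of integrin-linked adhesion complexes, had 344 against 102 CPM, with 14 of its 95 UMIs in 1 cell. Tbc1d4, a Rab GTPase-activating protein of glucose transporter traffic, had 79.8 against 21.9 CPM. Auh, an RNA-binding enzyme of leucine breakdown, had 26 UMIs in 15 cells against 31 in 22 others. Bcl2a1a, Bcl2a1b and Bcl2a1d, antiapoptotic BCL2 family genes, had log2 ratios of 1.83, 1.80 and 1.84, but they are nearly identical copies whose reads the counting may have split, so they count as 1 uncertain result.

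On the lower side the 15 genes were Zmym4, Neurl3, Yars, Slc20a1, Luc7l, Kctd5, Cdc23, Ncoa1, Hmgn5, Map3k2, Max, Rev1, Cpsf1, D16Ertd472e and Gprc5b. None belongs to a T cell list used here. Max, the dimer partner of Myc, had the most UMIs, 21 against 308, or 76.1 (47.1 to 116) against 198 CPM, a log2 ratio of -1.38 (-2.09 to -0.74). Slc20a1, a phosphate transporter, had 6 UMIs in 5 high-score cells and 148 in 80 others, 21.8 against 95.4 CPM. Of the 15, 7 had 0 UMIs in the high-score cells. At a floor of 3 counts in the class (10.9 CPM), Zmym4 was 3.08-fold and Gprc5b 2.01-fold lower. Their intervals reach down to 2.42-fold and 1.55-fold, so the floor does not give a least difference. The lower genes were thus mostly scarce ones whose absence from 162 cells rests on small numbers. After thinning to 1000 UMIs, Slc20a1 stood at -0.73, Luc7l at -0.48 and D16Ertd472e at -0.14, while Max stood at -1.59 and Zmym4 at -1.81. Among cells of at least 2000 UMIs, Max stood at -0.40.

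**Figure D3:**
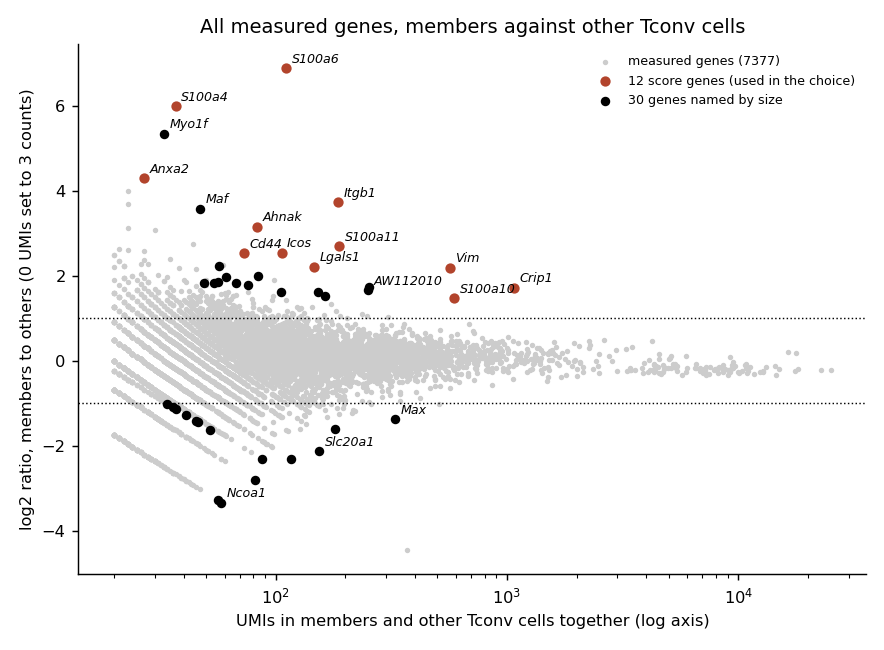
Log2 ratio of the high-score cells to the other Tconv cells (vertical axis, a class at 0 UMIs set to 3 counts) against the UMIs of the gene in both classes (horizontal axis, log scale) for the 7377 measured genes. Dotted lines mark 2-fold; the 12 score genes are red and the 30 genes named by size black, and S100a6, S100a4, Myo1f, Anxa2 and Itgb1 stand highest among the labelled genes.

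Genes of resting T cells were slightly lower in the high-score cells as a whole. Over the 16 listed genes the summed level was 4887 CPM against 5807, a log2 ratio of -0.25 (-0.33 to -0.17), and the median gene stood at -0.24, with 0 genes at least 2-fold higher and 1 lower. That 1 was Lef1, a transcription factor of naive T cells, with 11 UMIs against 128 and a log2 ratio of -1.05 (-2.09 to -0.16). Dapl1 stood at -0.88, Tcf7 at -0.60 and Satb1, a chromatin organiser, at -0.49, all with intervals below 0. With cells thinned to 1000 UMIs and chosen again, Dapl1 stood at -0.079 and Satb1 at -0.057, so these 2 differences were small in that setting. Igfbp4 went from -0.18 (-0.40 to 0.04) to 0.19. Klf2 (0.14) and S1pr1 (0.06), which serve exit from lymphoid organs, and Il7r (-0.23), the receptor chain for the survival cytokine IL-7, had intervals that included 0. So did Ccr7 at -0.17 (-0.45 to 0.11) and Actn1 at -0.25 (-0.53 to 0.03). Of the 16 genes, 5 had ratios above 0.

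The resting genes divided the high-score cells at a score of about 5, a boundary chosen after the values by range had been seen. Their summed level was 5600, 6171 and 5721 CPM in the 3 ranges below the cut and 5450 CPM (5123 to 5792) in the 112 cells at 3 to 5 per 1000, a log2 ratio to the other Tconv cells of -0.09 (-0.19 to 0.00). In the 50 cells at 5 or more it was 3638 CPM (3246 to 4065), a log2 ratio of -0.67 (-0.84 to -0.51). The lower level of resting genes was thus measured mainly in the upper 50 cells, 30.9% of the 162. TMM scaling gave -0.24 and -1.02 for the 2 ranges, and thinning to 1000 UMIs, after which other cells fall into the upper range, gave -0.25 for it. The share of ribosomal protein UMIs was 30.3% at 3 to 5 and 24.8% at 5 or more, and its part in these ratios was not tested. In the 12 cells at 10 or more the level was 3236 CPM (2444 to 4202), from too few cells to set apart.

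Several single genes were also lower at 5 or more than at 3 to 5. Igfbp4, a binding protein for insulin-like growth factors that naive CD4+ T cells express, had 931 CPM in the cells at 3 to 5, within the range of the classes below the cut (682 to 962), and 222 CPM in the 50 cells at 5 or more. Satb1 had 736 CPM at 3 to 5 and 326 (217 to 472) at 5 or more, against 854 in the others. Dapl1 had 34 UMIs in the first range and 3 in the second, and Lef1 10 and 1. These are raw UMIs of 112 and 50 cells, so they do not show whether the 2 genes were level with the others at 3 to 5. At 5 or more both had a log2 ratio to the others of -2.82. Klf2, S1pr1 and Il7r did not follow, with log2 ratios of 0.27, 0.33 and 0.27 at 5 or more, all with intervals that included 0; TMM scaling, which lowers ratios of this range by 0.35, puts the 3 below 0.

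Several effector genes were higher above the same boundary. The summed score had to be higher there, but not each gene in it. Crip1 had a log2 ratio to the others of 1.60 at 5 or more, against 1.72 over all 162 cells. S100a4 had 0 UMIs in the 112 cells at 3 to 5, where 0 of that class allows up to 3 counts, and 34 in the 50 cells above. S100a6 had 9 and 97 UMIs. Among genes outside the score, named after these values were seen, Maf had 36.8 CPM at 3 to 5 and 292 at 5 or more, Cxcr3 5.26 and 198, and the transcription factor gene Id2 189 and 361. Ccr2 and Cxcr6 had no such order: Ccr2 had 68.4 CPM at 3 to 5 and 46.6 (12.7 to 119) at 5 or more, and Cxcr6 105 (64.3 to 162) and 81.6 (32.8 to 168). Since the boundary at 5 and these genes were chosen with the values in view, they describe the cells and do not test the label of effector or memory cells. The 112 cells at 3 to 5, most of the 162, had resting genes near the level of the other cells, and the cells are therefore called by their score here.

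**Figure D4:**
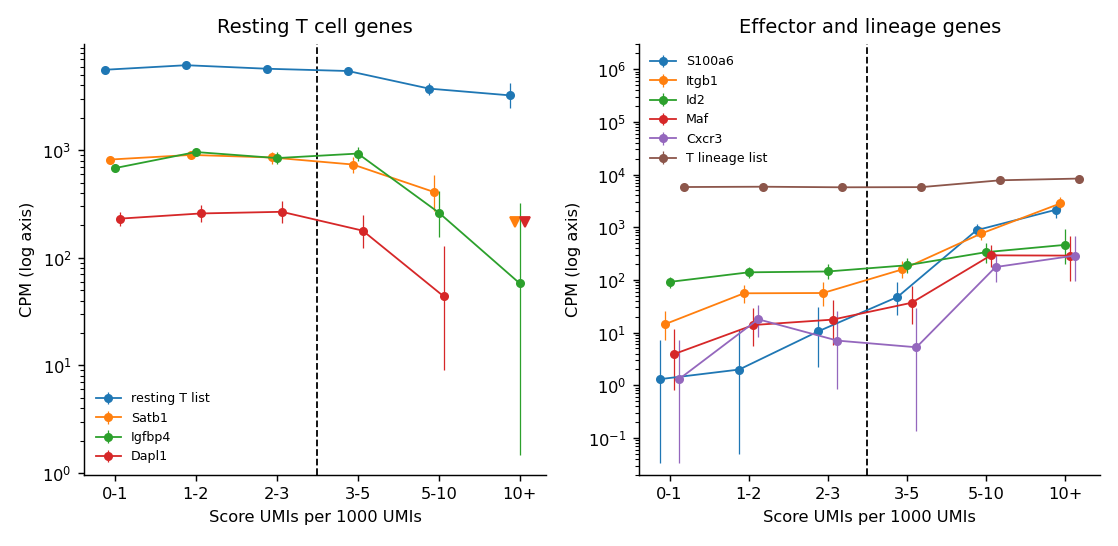
CPM (vertical axes, log scale) of resting T cell genes (left) and of effector and lineage genes (right) in Tconv cells by range of the score per 1000 UMIs (horizontal axes); bars are 95% counting intervals, triangles the upper limit where no UMI was counted, and the dashed line the cut. The resting list goes from 5450 CPM at 3 to 5 to 3740 at 5 to 10, while the T lineage list does not go down.

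The 162 cells were also split by S100a4 and S100a6, a split chosen after the values were seen. The 27 cells with a UMI of S100a4 or S100a6 (16.7%) had a median score of 7.78 and a median of 1683 UMIs, and the 135 without had 4.15 and 1550. Resting genes summed to 2518 CPM in the 27 and 5422 in the 135, a log2 ratio of -1.11 (-1.38 to -0.84). Igfbp4 had 3 UMIs in the 27 cells and 193 in the 135, a log2 ratio of -3.86 (-6.15 to -2.29), and Satb1 10 and 158 UMIs. Within the score, Itgb1 went with S100a4 and S100a6, at 1534 against 236 CPM, but Vim did not, at 433 (22 UMIs) against 1031 CPM, and Crip1 had 1200 against 1489 CPM. Every one of the 162 cells had to reach the cut through some of the 12 genes, so the levels of Vim, Crip1 and the other score genes within this split are partly set by the choice.

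The high-score cells carried T cell genes at the level of the other cells. The 12 measured T lineage genes summed to 6424 CPM against 5799 in the others, with 0 genes at least 2-fold apart in either direction and a median log2 ratio of 0.04, which TMM scaling turned to -0.12. Lck, the kinase of the T cell receptor, had 1465 against 1191 CPM, Cd4 718 against 705 and Thy1 1124 against 824. Of the other cell types, the B cell and erythroid lists had 0 UMIs in the high-score cells, and so did the plasma cell gene Jchain, which had 371 UMIs in 3 of the other cells. The myeloid list had 23 UMIs, 19 of them Cst3 and 0 of Lyz2, Csf1r, Cd68 and Tyrobp. Of the CD8 genes, Cd8a had 0 UMIs and Cd8b1 had 10 in 10 high-score cells and 76 in 66 others, 36.3 against 49.0 CPM. At least 3 UMIs of another cell type's list were found in 1 of 162 high-score cells (0.617%, 0.0156% to 3.39%) and in 11 of 934 others (1.18%). Foxp3 had 2 UMIs in the high-score cells and 3 in the others, against 168 and 368 in the corresponding classes of the Treg library.

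Receptors that guide effector cells into tissue were higher in several cases. The 13 listed homing receptors summed to 1015 CPM against 734, a log2 ratio of 0.47 (0.27 to 0.66). Of them 9 had at least 20 UMIs, Ccr2 and Cxcr3 only through their UMIs in the high-score cells. Cxcr6, the receptor for CXCL16, had 27 UMIs in 10 high-score cells and 32 UMIs in 13 others, 97.9 against 20.6 CPM. Cxcr3, which guides Th1 cells to inflamed tissue, had 18 UMIs in 10 cells and 12 in 9 others, and Ccr2, the receptor for CCL2, 17 UMIs in 7 cells and 6 in 6 others, log2 ratios of 3.08 (1.94 to 4.26) and 3.99 (2.58 to 5.63). Cxcr4 had 16 UMIs in 12 cells and 35 in 33 others. Ccr9 had 17 UMIs, of which 15 were in 1 cell, so its ratio rests on that cell. Selplg (-0.18), S1pr4 (-0.05) and Gpr183 (0.03) lay near 0.

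UMIs of Ccr2 and Cxcr6 were largely in the same cells. Of the 7 high-score cells with Ccr2, 6 also had Cxcr6, which is 60% of the 10 cells with Cxcr6. Cxcr3 shared 1 cell with each of them. The cells with Cxcr3 had a median score of 8.03 and 9 of 10 were at 5 or more, while the cells with Ccr2 had a median of 5.04 and those with Cxcr6 of 5.73. A UMI missed at this depth is common, so cells without a UMI of a receptor may still express it. Cxcr6 is also a gene of innate-like T cells, such as natural killer T cells. That list of 12 genes summed to 225 CPM in the high-score cells and 74.1 in the others, a log2 ratio of 1.60 (1.13 to 2.06). Besides Cxcr6 it rested on Il2rb, with 16 UMIs against 25, and on Xcl1, a chemokine gene, with 8 UMIs in 3 cells against 4 in 2. Its defining regulator Zbtb16 had 3 UMIs against 4, Klrb1c 1 against 1, and Ncr1, Fcer1g and Klrc1 had 0. The part of such cells in these values was not tested.

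Helper programs were thinly covered. The 16 listed Th1 genes summed to 334 CPM against 101, a log2 ratio of 1.73 (1.34 to 2.11). Besides Cxcr3 and Ccr2 the higher genes were Il18r1, an IL-18 receptor chain, at 61.6 against 19.3 CPM, and Hopx, a homeodomain protein of differentiated Th1 cells, at 47.1 against 11.6. The Th1 regulator Tbx21 had only 3 UMIs, in 3 high-score cells, and 1 in the others, and Ifng had 0. Of the Th17 genes Ccr6 and Il17a had 0 UMIs in both classes, and Gata3, the Th2 regulator, was 148.6 against 99.2 CPM, a log2 ratio of 0.58 (0.05 to 1.09). A count of 0 in 162 cells allows up to 1.85% of cells with a UMI of the gene.

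The 11 listed follicular helper genes summed to 616 CPM against 287, a log2 ratio of 1.10 (0.84 to 1.36). Maf and Izumo1r supplied most of the UMIs in the high-score cells, while Tox (0.03) and Sh2d1a (0.38) had intervals that included 0. Izumo1r, the folate receptor 4 gene, had 61 UMIs in 23 high-score cells and 229 in 101 others, a log2 ratio of 0.58, and stood 1.70 above the others in the cells at 5 or more. A few genes under the minimum of 20 UMIs, named after their values were seen, had UMIs almost only in the high-score cells or a higher level there. Pdcd1, encoding the inhibitory receptor PD-1, had 15 UMIs in 8 high-score cells and 1 UMI among the others, Cxcr5, the receptor that leads T cells into B cell follicles, 14 UMIs in 10 cells and 1, and Il10ra, an IL-10 receptor chain, 14 UMIs in 10 cells and 3. The regulator Bcl6 had 7 UMIs in each class, 25.4 against 4.51 CPM.

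Some genes of regulatory T cells were higher while Foxp3 was nearly absent. The 13 listed Treg signature genes summed to 344 CPM against 138, a log2 ratio of 1.32 (0.96 to 1.68). Of them 5 had at least 20 UMIs, Nrp1 and Capg only through the high-score cells. Ikzf2, encoding the transcription factor Helios, had 24 UMIs in 10 high-score cells and 20 in 16 others, with 9 of the 24 in 1 cell. Nrp1, encoding the receptor neuropilin-1, had 16 UMIs in 11 cells and 7 in 6, and Capg, an actin-capping protein, 11 in 9 and 10 in 10. Tnfrsf9 was lower, with 1 UMI against 24. Il2ra had 2 UMIs against 11, Gpr83 4 against 12 and Ctla4 2 against 2. Of the 10 cells with Ikzf2, 6 also had Maf, 5 had Il2rb, an IL-2 and IL-15 receptor chain, and 5 had Myo1f.

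Together, 8 genes named after their values were seen (Cxcr3, Ccr2, Cxcr6, Maf, Ikzf2, Nrp1, Il2rb and Myo1f) had a UMI in 38 of the 162 cells (23.5%) and in 68 of the 934 others (7.28%). Of the 38, 30 had at least 2 of the 8. The UMIs of these genes were thus gathered in a minority of the high-score cells.

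Among 16 listed transcription factors of effector cells 9 had at least 20 UMIs, and 2 of these were at least 2-fold higher. They were Maf, which reached the minimum through the high-score cells, and Id2, an inhibitor of E proteins that supports effector differentiation, which had 67 UMIs in 35 high-score cells and 181 in 93 others, a log2 ratio of 1.06 (0.63 to 1.47). Gata3 is given above; Runx3 lay at 0.02 and Klf6 at -0.53, with intervals including 0. Of 13 cytokine receptor genes 2 were at least 2-fold higher, Il2rb at 1.85 (0.85 to 2.81) and Il18r1 at 1.67 (0.72 to 2.58), and 1 was lower, Ifngr2 at -1.21 (-2.70 to -0.02). Il2rg, another chain of the IL-2 receptor, had 653 against 792 CPM, a log2 ratio of -0.28 (-0.51 to -0.05).

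Genes of recent T cell receptor signalling showed no common direction. Of 7 measured, 0 were at least 2-fold higher and 2 lower, Myc and Egr2. Dusp2, a phosphatase induced by the receptor, had 352 against 222 CPM, with 14 of 97 UMIs in 1 cell, and Cd69, an early activation antigen, stood at 0.66 (-0.12 to 1.37). Myc was lower, with 21 UMIs against 238, a log2 ratio of -1.01 (-1.73 to -0.36), next to its partner Max. Egr1 stood at -0.68 and Egr2 at -1.15, with intervals that included 0.

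Most actin cytoskeleton and integrin genes outside the score were higher by small steps, which TMM scaling made smaller still. Of 18 actin cytoskeleton genes 17 had ratios above 0, where 3994 of the 7377 measured genes did. Their median log2 ratio was 0.31, which TMM scaling lowers to 0.15, and their summed ratio was 0.20, which it lowers to 0.04. Actg1, gamma actin, had 3027 against 2189 CPM (log2 0.47), Actb 10814 against 9516 (0.18) and Tmsb4x, an actin-binding thymosin, 10053 against 8765 (0.20), while Tmsb10 was level (-0.03, -0.11 to 0.05). The 2 genes at least 2-fold higher were Myo1f and Capg. Among 7 integrins besides Itgb1, Itga4, which pairs with beta1 and beta7 chains, had 250 against 140 CPM, a log2 ratio of 0.83 (0.42 to 1.23), Itgb7 0.52 (0.09 to 0.93) and Itgb2 0.42 (0.18 to 0.67). Itgal stood at 0.14 and Itga6 at -0.73, with intervals that included 0. The list of S100, annexin and galectin genes outside the score also holds others, such as Emp3 and Plp2. Its genes did not go with those in the score. Of 9 measured, 0 were at least 2-fold higher and 1 was lower, Lgals8, with 2 UMIs against 30. Anxa7 stood at 0.85 (-0.03 to 1.66), Plp2 at 0.59, Anxa6 at 0.13, Emp3 at 0.04, Lgals9 at 0.17 and Anxa5 at 0.18.

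Ribosomal protein genes were lower by a small step and most glycolysis genes were slightly higher. Of 77 cytosolic ribosomal protein genes 1 had a ratio above 0 and none reached 2-fold, with a median log2 ratio of -0.18 and a summed ratio of -0.20 (-0.21 to -0.19). Of 77 nuclear genes of oxidative phosphorylation 3 were at least 2-fold higher and 1 lower (median 0.12). Of 13 glycolysis genes 10 were above 0, with a median of 0.42 against 0.07 for all genes, among them Pgk1 at 0.48 (0.07 to 0.86), Gapdh at 0.36 (0.04 to 0.67), Ldha at 0.25 (-0.07 to 0.55) and Pkm at -0.32 (-0.69 to 0.03). Of 13 interferon-stimulated genes 0 reached 2-fold (median -0.03), although the 3 most abundant were higher: Ly6a at 0.39 (0.15 to 0.63), Ifi27l2a at 0.58 (0.28 to 0.88) and Ly6e at 0.27 (0.02 to 0.50). Proliferation genes were scarce: Mki67 had 8 UMIs in 5 high-score cells and 3 in 3 others, and of 8 measured genes of that list 0 reached 2-fold, with Pcna at 0.16.

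Survival and receptor groups were mixed. Of 9 BCL2 family genes 3 were at least 2-fold higher and 2 lower (median 0.15); besides the 2 Bcl2a1 copies of that list the higher one was Bak1, a proapoptotic member, at 1.09 (0.09 to 2.01), and Mcl1 and Bcl2, which sustain survival, stood at 0.13 and 0.15. Of 9 tumour necrosis factor receptors and ligands 0 were higher and 2 lower (median -0.38), with Cd27 at -0.09, Tnfrsf18, encoding GITR, at 0.22 and Fas at 0.70, all with intervals including 0. Of 3 measured inhibitory receptors Btla was at least 2-fold lower, at -1.06 (-2.42 to 0.05), and Cd96 was level at -0.07. The AP-1 subunit gene Junb stood at 0.75 (0.29 to 1.19) and Jund at 0.02. The GIMAP genes, GTPases of lymphocyte survival, had a median of 0.24 over 8, with Gimap3 at 0.35 (0.10 to 0.60) and Gimap6 at 0.01.

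The same cut in the Treg library selected 227 of 719 cells that passed, 31.6% (28.2% to 35.1%), about which the ratios below are side-by-side values of 2 libraries with no test of their difference. Treg cells had more UMIs per cell at the cut (median 1839) than the Tconv high-score cells, and 113 of the 227 lay at 5 or more per 1000. Against the other 492 Treg cells, 536 of 6959 measured genes were at least 2-fold higher, 7.7%. The 12 score genes, which chose the cells there too, ranged from 1.66 for Vim to 6.31 for S100a4.

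In levels, S100a6 had 1502 CPM in the Treg cells at the cut and 384 CPM in the Tconv high-score cells, S100a4 603 and 123, and Itgb1 1003 and 475. Vim was ordered the other way, at 546 CPM in Treg and 921 in Tconv, while Crip1 was alike, at 1478 and 1436. Of the 15 genes named as higher in the Tconv high-score cells, 13 had ratios above 0 in Treg and 7 were at least 2-fold higher there. The median log2 ratio of all measured genes in Treg was 0.08. Maf stood at 2.43 (1.78 to 3.11), Myo1f at 3.32 (2.37 to 4.40) and AW112010 at 1.77 in Treg. The 2 below 0 were Tbc1d4 at -0.15 and Fkbp15 at -0.45, both with intervals including 0. Cxcr6 had no UMI in any Treg cell that passed the filters. Of the 15 lower genes, 8 were below 0 in Treg and 2 at least 2-fold lower, Rev1 and Gprc5b, the latter with 1 UMI against 5. Over all 6959 measured genes of Treg, 449 were at least 2-fold lower. Slc20a1 had the opposite sign in Treg, 1.74 (0.72 to 2.81) against -2.13 (-3.60 to -0.98) in Tconv. Its Tconv value was -0.73 after thinning to 1000 UMIs.

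**Figure D5:**
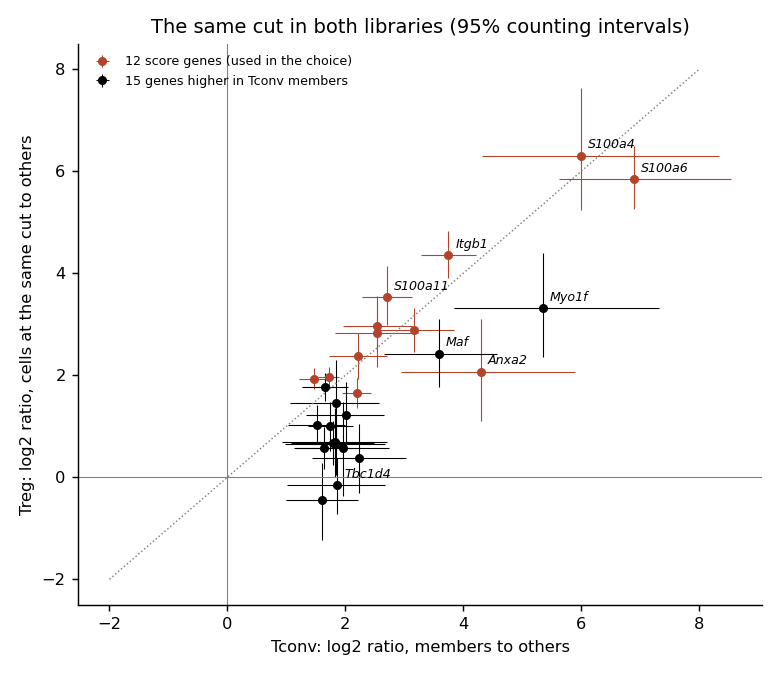
Log2 ratio of cells at the cut to the other cells in the Tconv library (horizontal axis) and in the Treg library (vertical axis) for the 12 score genes (red) and the 15 genes higher in the Tconv high-score cells (black); bars are 95% counting intervals and the dotted line marks equal ratios. Myo1f, Maf and Anxa2 lie below the line, and Tbc1d4 near 0 in Treg.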

How the data were processed

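The deposited table holds raw UMI counts per gene and cell for both libraries (23725 genes, 2116 cells, largest value 368), per the labels and the values. TopHat2, SAMtools and mm10 appear in the submitters' processing notes without roles or versions; for the UMI counter, annotation and cell filters, these were not given in the sources used here. Cells were grouped by title, with the codes read from the series title. Counts were summed per cell class and divided by all UMIs of the class (CPM); intervals are 95% exact Poisson, conditional binomial or Clopper-Pearson, covering counting error only and assuming independent UMIs. A class at 0 was set to 3 counts. Shares at matched depth used 1000 UMIs per cell drawn without replacement. No doublet caller was run. With 1 library per group no p-value was computed.

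The high-score cells, the gene lists and the rules were chosen with earlier results of these data known. Named genes were the score genes, the 15 genes each way of at least 30 UMIs whose interval bound lay farthest from no difference (no cell over 20% of the UMIs, no ribosomal protein or receptor variable genes), and up to 4 abundant members per list; the genes given for single cells or score ranges, and those under 20 UMIs, were added after their values were seen. Some listed genes are not reported here. Gene positions were matched by symbol to GENCODE (GRCm38, the assembly of mm10). Alternatives used edgeR 4.0.16 TMM factors, other totals, weights, depths and cuts. Python 3.11.15 and R 4.3.3 were used.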

Additional observations from a re-analysis of the deposited data

How the results depend on the processing

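With 1 library per group, differences between mice could not be assessed, and few UMIs limit most genes. Of 701 values of 55 genes over 13 alternative settings, 606 stayed within the counting interval of the reported value, and 6 values of 4 genes changed sign: Fkbp15 at -2.29 among cells of at least 2000 UMIs, Kctd5 at 0.15 and Rev1 at 0.25 after thinning, Rev1 at 0.18 with a cut of 2 per 1000, and Igfbp4 at 0.19 after thinning and 0.059 against only the cells below 1 per 1000. All 156 values of the score genes in these settings stayed above 0. Settings that gave no ratio for a gene because a class had 0 UMIs were left out.

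The number of high-score cells, 162, became 253 after thinning to 1000 UMIs, 33 with at least 2000 UMIs per cell, 326 at a cut of 2 and 50 at a cut of 5. Genes at least 2-fold higher, 454, became 253 after thinning, 279 at a cut of 2, 1006 at a cut of 5 and 162 with a minimum of 50 UMIs. Genes at least 2-fold lower, 578, became 382 with at least 2000 UMIs per cell, 302 at a cut of 2 and 196 with a minimum of 50 UMIs. The median of the resting T list, -0.24, became -0.33 without ribosomal protein genes in the total, -0.40 with TMM, -0.091 after thinning, -0.66 with at least 2000 UMIs, -0.12 at a cut of 2 and -0.94 at a cut of 5, and never changed sign. Its sum in cells at 5 or more, -0.67, became -1.02 with TMM and -0.25 after thinning, where cells are assigned to ranges anew, and its sum at 3 to 5, -0.09, became -0.24 with TMM. The last 2 results were added after seeing the data. No paired analysis was possible because each group is 1 library and its cells carry no shared replicate.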
